A study of Mus musculus with 18 samples.

Results

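The replication-dependent histone genes were followed in bulk RNA-seq of synovial macrophages from adult wild-type C57BL/6 mice of both sexes. Members were the gene symbols of the Hist1, Hist2, Hist3 and Hist4 clusters with at least 10 counts summed over the 18 libraries. This gave 66 of the 24421 symbols in the count tables. Of the 68 symbols with such names, *Hist1h2aa* (1 count) and *Hist1h1t* (5 counts) were under the rule, while *Hist3h2bb-ps* (13 counts), *Hist3h2ba* (47 counts) and *Hist1h2ba* (55 counts) were just inside it. The members comprised 5 genes of the linker histone H1, and 17 of H2A, 19 of H2B, 12 of H3 and 13 of H4. The Hist1 cluster on chromosome 13 held 52 of them, between positions 21715711 and 23934156 (GRCm38). The Hist2 cluster on chromosome 3 held 10, Hist3 on chromosome 11 held 3, and Hist4 on chromosome 6 held 1.

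The macrophages were sorted from the digested synovium as LYVE1+CX3CR1+ cells, MHCII+CD11c- cells and MHCII+CD11c+ cells. Mice were untreated or had received immune complexes (IC) of ovalbumin and rabbit antibody to it into a vein 8 h earlier. Each of the 6 groups had 3 libraries, and each library held cells from 6 legs of 3 mice, so animals were pooled and variation between single mice was not measured. The labels number the libraries but do not say which of them came from the same mice. Since RNA was converted with a total RNA kit, without selection for poly(A) tails, transcripts that lack a tail could be captured.

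Histones H2A, H2B, H3 and H4 form the core around which DNA is wrapped, and H1 binds the linker DNA. Their replication-dependent genes are switched on as cells copy their DNA, and most of their transcripts are unspliced and end in a stem-loop instead of a poly(A) tail. The stem-loop is bound by the protein SLBP, which takes part in 3′ end cleavage, export and translation of the transcript, and the transcripts are degraded when DNA synthesis stops.

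The stem-loops are shown because they are what sets these transcripts apart from most others in the libraries. They were sought in the GENCODE transcripts (GRCm38) after the coding part, by a fixed pattern with a stem of 6 paired bases around a loop of 4 bases. The first arm had to be GG followed by 4 bases of C or T, and the loop had to start with TT. The second arm had to pair exactly with the first. These bases were thus set by the search, and stem-loops of other bases were not sought. A stem-loop was found in 43 of the 66 members, a median of 31 bases after the stop codon (range 21 to 58). In 15 of the other members, less than 40 bases were annotated after the coding part, and the pseudogene *Hist3h2bb-ps* has no annotated coding part, so that its absence says nothing of the gene. Among all 55450 annotated genes, 0.117% held the pattern anywhere in a transcript. Each line gives a member, with the paired bases in capitals.
Hist1h1c, H1: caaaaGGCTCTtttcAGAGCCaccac
Hist2h2aa1, H2A: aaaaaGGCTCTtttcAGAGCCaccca
Hist1h2be, H2B: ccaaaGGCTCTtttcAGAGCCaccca
Hist1h3f, H3: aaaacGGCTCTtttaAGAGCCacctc
Hist1h4d, H4: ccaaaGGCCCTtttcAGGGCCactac
Hist1h4b, H4: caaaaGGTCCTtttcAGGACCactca

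The 43 members carried 6 distinct stem-loops. The form shown for *Hist1h1c* was found in 10 H2A, 8 H2B, 5 H3 and 3 H1 members and in no H4 member. Of the 11 H4 members with a stem-loop, 9 had the arms shown for *Hist1h4d*, with C and G at the fourth pair, and 2 had the arms shown for *Hist1h4b*. *Hist1h2bc*, a histone H2B gene, had only a spliced transcript of 2 exons, without a stem-loop and with the poly(A) signal AATAAA. In all, 61 members had only transcripts of 1 exon, and all 5 with a spliced transcript were H2B genes. The word AATAAA followed the coding part in an annotated transcript of 18 members.

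Promoters also differed by class. RefSeq promoter windows (250 bases before to 50 after the start, GRCm38.p6) were matched for 60 members. On either strand, CCAAT was present in all windows of the 5 H1, 17 H2A, 16 H2B and 10 H3 members but in 3 of the 12 of H4, against 41.1% of 27025 genes. TATAAA was in 34 of the 60 windows (56.7%, against 15.7% of all genes). The octamer ATTTGCAT was in 7 H2B and 6 H2A windows and in none of the other classes (2.0% of all genes). The 120 bases before the start are shown for a gene of each pattern, with these motifs in capitals in either direction.
Hist1h2bb, H2B, chr13:23746614-23746733, plus strand: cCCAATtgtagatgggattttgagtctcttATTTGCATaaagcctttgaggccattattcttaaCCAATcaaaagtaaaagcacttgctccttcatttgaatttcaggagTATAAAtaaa
Hist1h3b, H3, chr13:23752225-23752344, plus strand: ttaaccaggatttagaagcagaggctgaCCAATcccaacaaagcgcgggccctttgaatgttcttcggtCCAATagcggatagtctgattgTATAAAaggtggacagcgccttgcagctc
Hist1h4h, H4, chr13:23530924-23531043, plus strand: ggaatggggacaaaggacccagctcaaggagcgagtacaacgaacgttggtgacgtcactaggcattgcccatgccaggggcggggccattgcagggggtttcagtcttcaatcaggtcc

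Many members are near-identical copies. The 4 pairs *Hist2h2aa1* and *Hist2h2aa2*, *Hist1h2ao* and *Hist1h2ap*, *Hist1h2bq* and *Hist1h2br*, and *Hist2h3c1* and *Hist2h3c2* had the same counts in all 18 libraries, so the 66 symbols gave 62 distinct rows of counts. A median of 70.5% of the 75-base windows of an H2A transcript also occurred in another member, against 52.4% for H3, 36.6% for H2B, 24.6% for H4 and 1.5% for H1. How reads matching several genes were counted is not given in the sources used here. Values of single genes with shared windows are therefore uncertain, in H2A and H3 and also in H2B and H4. Among H4 genes, 48.3% of the windows of *Hist1h4b* were shared, 42.4% of those of *Hist1h4h* and 35.5% of those of *Hist1h4a*.

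Libraries held 245903 to 2172358 counts, and the members took 0.164% to 1.02% of them. The smallest were replicates 2 (245903) and 1 (381217) of MHCII+CD11c- with IC. Of the members, 56 had a count in every library and 17 had at least 10 counts in every library. Genes used to sort the cells were checked against the labels. *Lyve1* lay at 2162 to 3537 CPM (counts scaled to library size with TMM factors) in LYVE1+CX3CR1+ libraries, and *H2-Ab1*, an MHC class II gene, at 2661 to 7786 CPM in the others against at most 44.1 CPM there. *Lyve1* was not absent from the MHCII+ libraries. It lay at 327 to 437 CPM without treatment and at 996 to 1226 CPM with IC in MHCII+CD11c+, and at 699 to 877 CPM without treatment and 514 to 2280 CPM with IC in MHCII+CD11c-, so that it overlapped with the LYVE1+CX3CR1+ range there. *Cx3cr1*, the other gene of that gate, lay at 693 to 826 CPM in LYVE1+CX3CR1+ and at most at 376 CPM in the other subsets.

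The summed level of the 66 members was highest in untreated MHCII+CD11c+ macrophages. It was 10617, 9095 and 7177 CPM in replicates 1 to 3 of that group. The untreated MHCII+CD11c- libraries had 8159, 3035 and 4252 CPM, and the untreated LYVE1+CX3CR1+ libraries had 2570, 3014 and 1855 CPM. With IC, the sums were 2731, 6104 and 3899 CPM in MHCII+CD11c+, 2683, 4803 and 3230 CPM in MHCII+CD11c- and 1653, 1935 and 2002 CPM in LYVE1+CX3CR1+. No untreated MHCII+CD11c+ library overlapped with an IC library of that subset or with any LYVE1+CX3CR1+ library. H2A genes made up 49.8% to 57.5% of the sum in every group, led by *Hist2h2aa1* and its copy. H3 genes made up 17.8% and 16.2% in the untreated MHCII+CD11c- and MHCII+CD11c+ groups and 11.4% in untreated LYVE1+CX3CR1+. The sums count both genes of an identical pair, can hold other shared reads more than once, and carry no test.

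**Figure D1:**
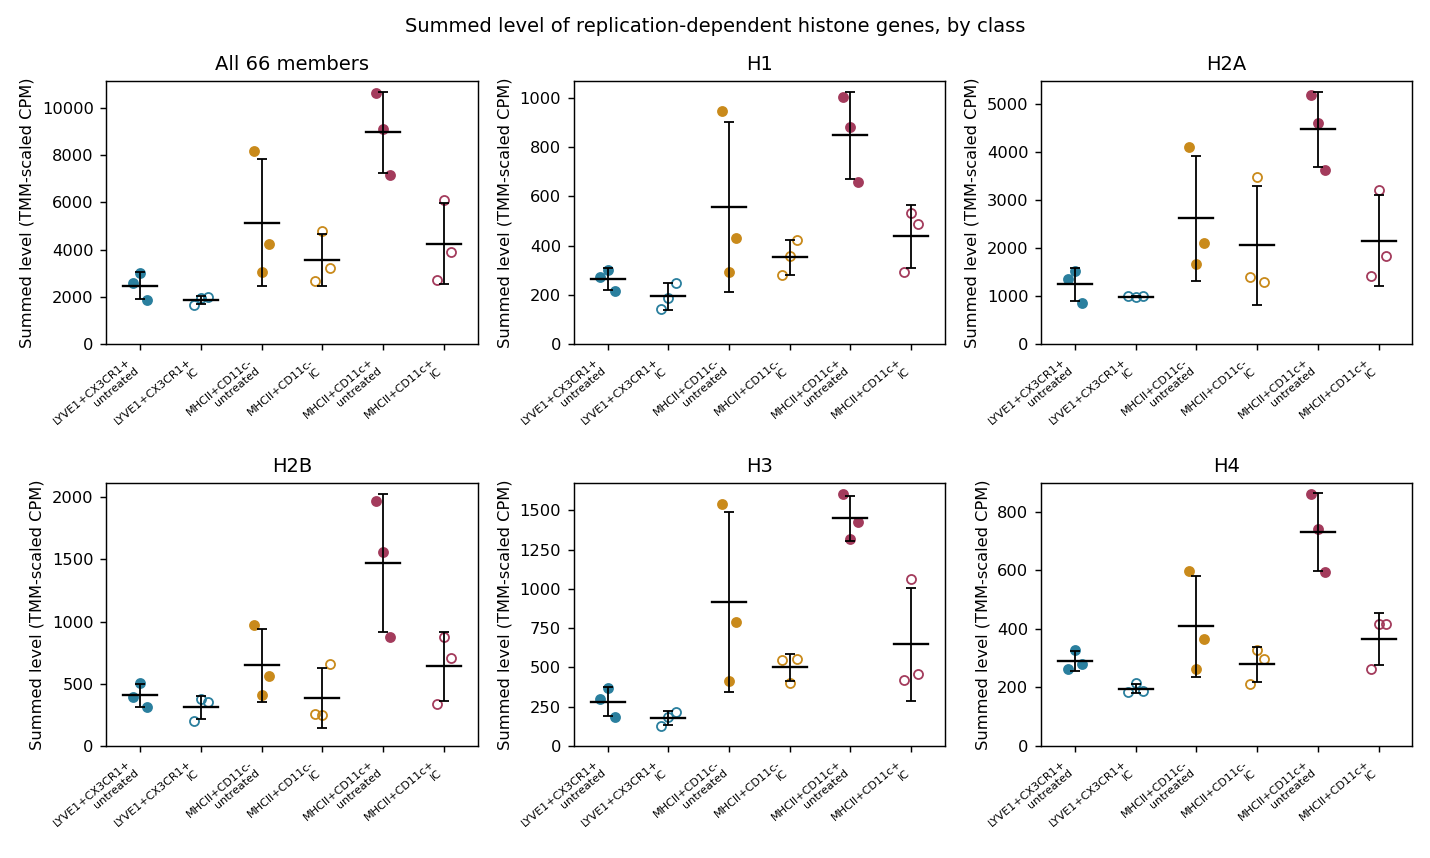
Summed level of the histone genes (TMM-scaled CPM) in each library, for all 66 members and for each class; filled points are untreated, open points had IC, and bars give the mean and SD of 3 libraries. The untreated MHCII+CD11c+ libraries lie at 7177 to 10617 for all members, and replicate 1 of untreated MHCII+CD11c- at 8159 lies apart from the other libraries of its group.

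The first comparison asked how histone transcripts differed between the subsets, over both conditions. Histone genes were lower in LYVE1+CX3CR1+ macrophages than in MHCII+CD11c+ macrophages in every class. By edgeR's quasi-likelihood test over all 10550 genes tested, 58 of the 63 tested members were lower at an adjusted p under 0.05 and none was higher, where 18.2% of all genes were lower. The median log2 fold change of the members was −1.72 and that of all genes was −0.03. The lower members were all 5 of H1, all 17 of H2A, 15 of 16 of H2B, all 12 of H3 and 9 of 13 of H4. The 3 members that did not pass the filter on low counts were the H2B genes *Hist1h2ba*, *Hist3h2ba* and *Hist3h2bb-ps*.

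Against MHCII+CD11c- macrophages, 32 of the 63 members were lower in LYVE1+CX3CR1+ and none was higher, beside 11.6% of all genes lower. The median was −0.96 for the members and 0.00 for all genes. Here the classes had unequal counts. H3 had 11 of 12 members lower (median −1.65), H2A 13 of 17 (−1.25) and H1 4 of 5 (−0.97), while H2B had 3 of 16 (−0.79) and H4 had 1 of 13 (−0.50). The difference between classes was not tested. Without replicate 1 of untreated MHCII+CD11c-, 21 members were lower.

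MHCII+CD11c+ macrophages had 9 members higher than MHCII+CD11c- and none lower, where 4.97% of all genes were higher. The median was 0.58 over the members and 0.00 over all genes. All 9 came from H2B (5 genes), H4 (3 genes) and H3 (1 gene). They were *Hist1h2bb*, *Hist1h2bc*, *Hist1h2bj*, *Hist1h2bl*, *Hist2h2bb*, *Hist1h4a*, *Hist1h4b*, *Hist1h4h* and *Hist1h3b*. This count rested on single libraries, with 3 members without replicate 2 of MHCII+CD11c+ with IC, 4 without replicate 2 of untreated MHCII+CD11c- and 5 without replicate 3 of that group or replicate 1 or 2 of untreated MHCII+CD11c+, but 21 without replicate 1 of untreated MHCII+CD11c- and 16 without replicate 1 of MHCII+CD11c+ with IC.

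**Figure D2:**
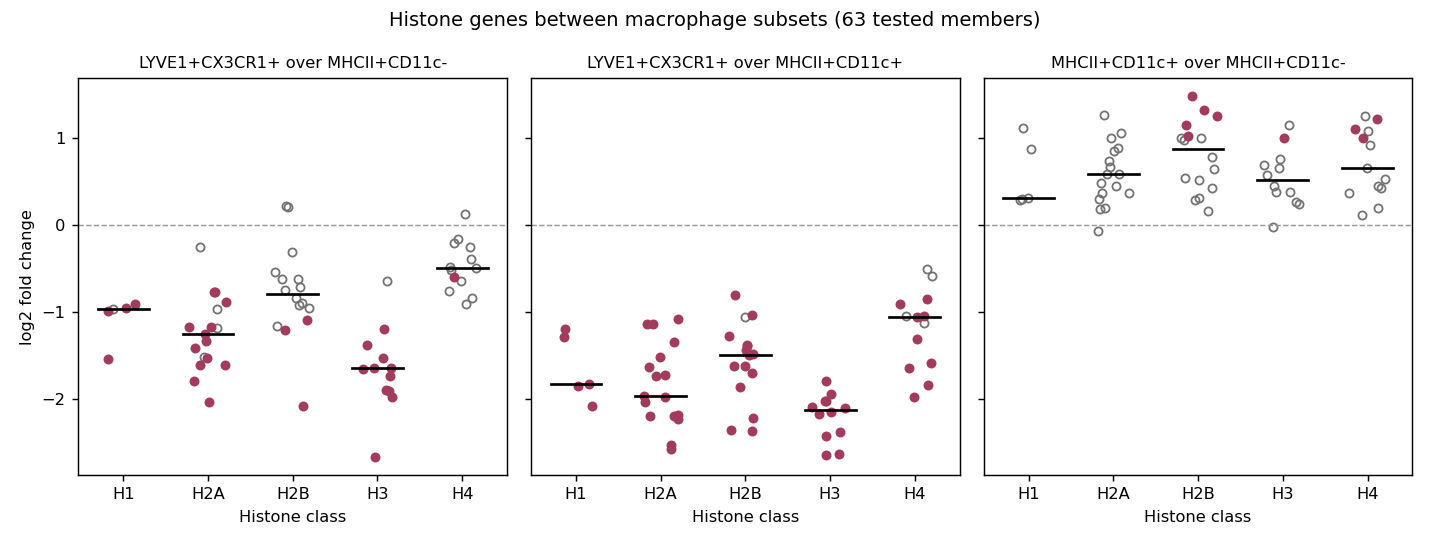
Log2 fold change of each of the 63 tested histone genes between subsets over both conditions, by class; filled points passed edgeR's test at an adjusted p under 0.05 and lines are class medians. In LYVE1+CX3CR1+ over MHCII+CD11c- the H3 median is −1.65 and the H4 median −0.50.

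Among the linker histones, *Hist1h1c* (chr13:23738807-23739531) was the most abundant, with a mean level per length of 273 CPM per kb over the 18 libraries. Its level was 124, 142 and 107 CPM in untreated and 88.7, 112 and 113 CPM in IC-treated LYVE1+CX3CR1+ libraries. The untreated MHCII+CD11c- libraries had 403, 130 and 233 CPM and the untreated MHCII+CD11c+ libraries 369, 322 and 263 CPM. Thus replicate 1 of MHCII+CD11c- was high and replicate 2 lay within the range of LYVE1+CX3CR1+. The log2 fold change of LYVE1+CX3CR1+ was −0.91 ± 0.20 (SE) against MHCII+CD11c- (edgeR adjusted p = 0.00123) and −1.19 ± 0.19 against MHCII+CD11c+ (edgeR adjusted p = 1.57e-05). *Hist1h1b*, which encodes another linker histone, had the largest difference from MHCII+CD11c+ in its class, at −2.07 ± 0.36.

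Core histone H2A pairs with H2B at the outside of the histone octamer. *Hist2h2aa1* (chr3:96245497-96246052) had the highest level of all members, 1089 CPM per kb. It was at 395, 455 and 296 CPM in untreated LYVE1+CX3CR1+ libraries, at 1069, 508 and 642 CPM in untreated MHCII+CD11c- and at 1104, 1254 and 942 CPM in untreated MHCII+CD11c+. With IC its levels were 340, 367 and 298 CPM, 422, 852 and 279 CPM, and 372, 855 and 455 CPM in the same order of subsets. Untreated LYVE1+CX3CR1+ libraries were below all untreated libraries of the other subsets, while with IC replicate 3 of MHCII+CD11c- fell below all of LYVE1+CX3CR1+. Its log2 fold change between LYVE1+CX3CR1+ and MHCII+CD11c+ was −1.14 ± 0.22 (edgeR adjusted p = 0.000168).

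*Hist1h2ao*, whose counts could not be separated from those of *Hist1h2ap*, showed a larger difference. It lay at 64.5, 87.3 and 37.0 CPM in untreated LYVE1+CX3CR1+, at 295, 108 and 120 CPM in untreated MHCII+CD11c- and at 465, 290 and 230 CPM in untreated MHCII+CD11c+. The untreated LYVE1+CX3CR1+ libraries did not overlap with either. The difference was −1.61 ± 0.29 against MHCII+CD11c- (edgeR adjusted p = 0.000181) and −2.19 ± 0.28 against MHCII+CD11c+ (edgeR adjusted p = 5.32e-07). *Hist1h2ab* had a wide spread within groups, with 101, 98.6 and 6.97 CPM in untreated LYVE1+CX3CR1+ libraries. *Hist1h2ad* ranged from 79.0 to 428 CPM in untreated MHCII+CD11c-.

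Of the 16 tested H2B genes, 3 were called lower in LYVE1+CX3CR1+ than in MHCII+CD11c- macrophages, and 2 had fitted values above 0. Like most of the class, *Hist1h2bc*, the gene with only a spliced transcript in the annotation, was not called lower there. It was at 51.7, 84.2 and 54.7 CPM in untreated LYVE1+CX3CR1+, at 67.1, 62.0 and 65.1 CPM in untreated MHCII+CD11c- and at 177, 162 and 140 CPM in untreated MHCII+CD11c+ libraries. The first 2 groups overlapped and the third lay above both. The log2 fold change was 0.22 ± 0.21 for LYVE1+CX3CR1+ over MHCII+CD11c- (edgeR adjusted p = 0.517) and 1.02 ± 0.20 for MHCII+CD11c+ over MHCII+CD11c- (edgeR adjusted p = 0.00147).

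*Hist1h2bb*, whose promoter is shown above, had the largest value in MHCII+CD11c+ over MHCII+CD11c- of the called members, 1.47 ± 0.36. Its untreated levels were 63.8, 74.6 and 49.4 CPM against 19.7, 9.72 and 18.3 CPM. *Hist1h2bh* had the largest difference of LYVE1+CX3CR1+ from MHCII+CD11c- in the class, −2.07 ± 0.39. *Hist1h2bq* and *Hist1h2br*, with identical counts, were lower in LYVE1+CX3CR1+ than in MHCII+CD11c+ (−1.62 ± 0.32), and reached 413 CPM in replicate 1 and 102 CPM in replicate 3 of untreated MHCII+CD11c+.

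H3 genes, which encode the core histone whose tail carries many known modifications, had the largest class medians in LYVE1+CX3CR1+ against either subset. *Hist1h3g* (chr13:23535418-23535909) was at 7.38, 4.99 and 2.68 CPM in untreated LYVE1+CX3CR1+, at 23.2, 10.9 and 25.4 CPM in untreated MHCII+CD11c- and at 66.4, 26.8 and 48.0 CPM in untreated MHCII+CD11c+ libraries. The groups followed that order with no overlap between the first and the others. The log2 fold changes of LYVE1+CX3CR1+ were −2.66 ± 0.44 and −2.63 ± 0.42 against the other subsets (edgeR adjusted p = 5.8e-05 and 1.72e-05). *Hist2h3c1* and its copy *Hist2h3c2*, the most abundant H3 genes, differed by −1.65 ± 0.34 and −2.02 ± 0.32. *Hist1h3h* was the H3 gene that did not pass against MHCII+CD11c- (−0.64 ± 0.49, edgeR adjusted p = 0.409).

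H4 pairs with H3 at the centre of the octamer, and its genes had the smallest class medians in the same comparisons. *Hist1h4d* (chr13:23581568-23581969), the most abundant at 256 CPM per kb, lay at 71.8, 80.5 and 79.3 CPM in untreated LYVE1+CX3CR1+ and at 160, 74.2 and 113 CPM in untreated MHCII+CD11c-. These groups overlapped. Untreated MHCII+CD11c+ had 229, 167 and 160 CPM, the lowest of which was level with replicate 1 of MHCII+CD11c-. *Hist1h4d* was the H4 gene that passed against MHCII+CD11c- (−0.60 ± 0.19, edgeR adjusted p = 0.0251). Of the 75-base windows of its transcript, 3.7% occurred in another member, and no 150-base window did. *Hist1h4h* was at 98.8, 89.6 and 52.8 CPM in untreated MHCII+CD11c+ and at 28.1 to 41.3 CPM in the untreated libraries of the other subsets. It was higher in MHCII+CD11c+ than in MHCII+CD11c- (1.10 ± 0.24, edgeR adjusted p = 0.00315) and was not detectably different between the other subsets (−0.20 ± 0.24). *Hist1h4i*, *Hist1h4j*, *Hist2h4* and the H2B gene *Hist2h2be* were the tested members that passed in none of the 16 comparisons.

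**Figure D3:**
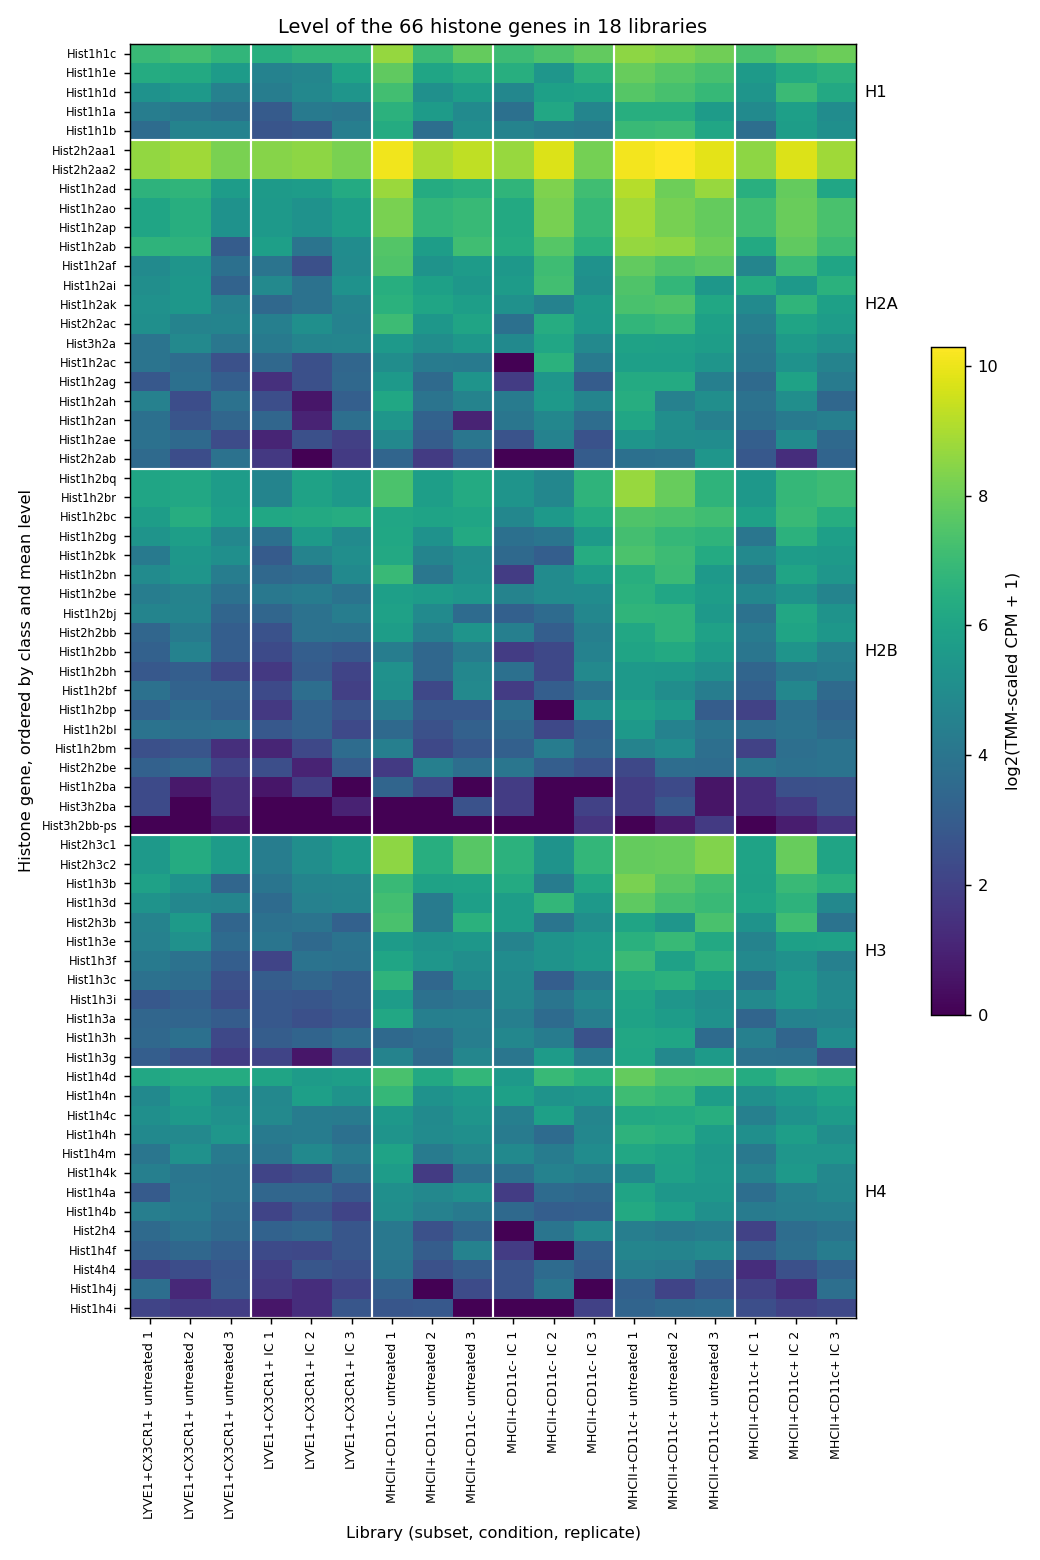
Level of each of the 66 members in each of the 18 libraries, as log2(TMM-scaled CPM + 1), by class and mean level. Hist2h2aa1 and its copy are highest in all libraries, and some H2A, H2B and H4 genes are at or near 0 in the smallest libraries.

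Within untreated mice, 55 members were lower in LYVE1+CX3CR1+ than in MHCII+CD11c+ (12.4% of all genes) and 18 were lower than in MHCII+CD11c- (7.12%). With IC these counts were 34 (11.5%) and 10 (6.47%), while MHCII+CD11c+ exceeded MHCII+CD11c- for 4 members without treatment (1.89%) and for 0 with IC (1.77%). In the last comparison, 7 members were higher and 1 lower at an unadjusted p under 0.05, and the DESeq2 Wald test called 0. Medians over the members were −1.99, −0.97 and 0.94 without treatment and −1.48, −1.02 and 0.35 with IC. Single libraries moved several of these counts. The 4 members higher in untreated MHCII+CD11c+ than in MHCII+CD11c- became 1 without replicate 1 or 2 of the first or replicate 2 or 3 of the second, and 23 without replicate 1 of the second, and were 14 with a block for treatment and replicate number. Without replicate 1 of untreated MHCII+CD11c-, 2 members were lower in untreated LYVE1+CX3CR1+ than in it, and 7 without replicate 3 of untreated LYVE1+CX3CR1+. Without replicate 2 of MHCII+CD11c+ with IC, 12 members were lower in LYVE1+CX3CR1+ than in MHCII+CD11c+ with IC.

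The second comparison asked what changed 8 h after IC. Averaged over the 3 subsets, 14 members were lower with IC and none was higher by edgeR's test, where 3.09% of all genes were lower. All 63 fitted values were below 0, with a median of −0.75 against −0.01 for all genes, and 47 members were lower at an unadjusted p under 0.05. By class, 6 of 13 H4, 3 of 12 H3, 2 of 5 H1, 2 of 17 H2A and 1 of 16 H2B members were lower.

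*Hist1h4b* (chr13:23756937-23757386) had the lowest adjusted p of them. It went from 20.1, 18.1 and 12.3 CPM to 3.37, 5.77 and 3.35 CPM in LYVE1+CX3CR1+, from 32.4, 21.9 and 17.3 CPM to 10.4, 7.51 and 7.98 CPM in MHCII+CD11c-, and from 75.8, 55.6 and 35.0 CPM to 18.4, 20.4 and 20.6 CPM in MHCII+CD11c+. Untreated and IC libraries did not overlap in any subset. Its mean log2 fold change was −1.64 ± 0.24 (edgeR adjusted p = 9.5e-05), from 2 to 145 counts per library. *Hist1h4a* and *Hist1h4h* changed by −1.26 ± 0.24 and −0.91 ± 0.19, and *Hist1h4c*, *Hist1h4d* and *Hist1h4f* by −0.74, −0.62 and −1.15.

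Outside H4, *Hist1h1e* and *Hist1h1b*, both linker histones, were lower by −0.96 ± 0.22 and −1.19 ± 0.31. *Hist2h3c1* and its copy were lower by −1.06 ± 0.27, and *Hist1h3a* by −0.98 ± 0.27. *Hist1h2ak*, *Hist2h2ab* and *Hist1h2be* were the others. *Hist2h2ab* had the largest value, −1.75 ± 0.50, at 0 to 86 counts per library, with 3 libraries at 0. *Hist2h2aa1*, the most abundant member, gave −0.57 ± 0.18 and *Hist1h1c* gave −0.45 ± 0.16, and neither passed.

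Taken one subset at a time, few members passed. In MHCII+CD11c+, *Hist1h2be*, *Hist1h3f*, *Hist1h3g* and *Hist1h4b* were lower with IC (0.19% of all genes lower), with a median of −1.08 over the members and 46 lower at an unadjusted p under 0.05. *Hist1h3f* went from 129, 57.6 and 99.3 CPM to 27.6, 36.0 and 21.2 CPM in this subset (−1.76 ± 0.38, edgeR adjusted p = 0.0252). No library of one condition lay within the range of the other. None of the 4 was called in every run that left out 1 library: 0 members were called without replicate 1 of the untreated group, or without replicate 1 or 3 of the IC group, 1 or 2 without replicate 2 or 3 of the untreated group, 2 without replicate 3 of LYVE1+CX3CR1+ with IC, and 7 without replicate 2 of the IC group.

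In LYVE1+CX3CR1+ macrophages *Hist1h4b* alone was lower with IC (−1.99 ± 0.41, edgeR adjusted p = 0.0215, with 0.218% of all genes lower), and it was not called without replicate 1 or 2 of the untreated or replicate 1 or 3 of the IC group. The median over the members was −0.57. In MHCII+CD11c- macrophages 0 members passed (0.512% of all genes lower), 9 were lower at an unadjusted p under 0.05, and the DESeq2 Wald test called 1. The median there was −0.46. The summed level with IC over untreated differed by −0.53 on the log2 scale, but by −0.03 without replicate 1 of the untreated group.

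**Figure D4:**
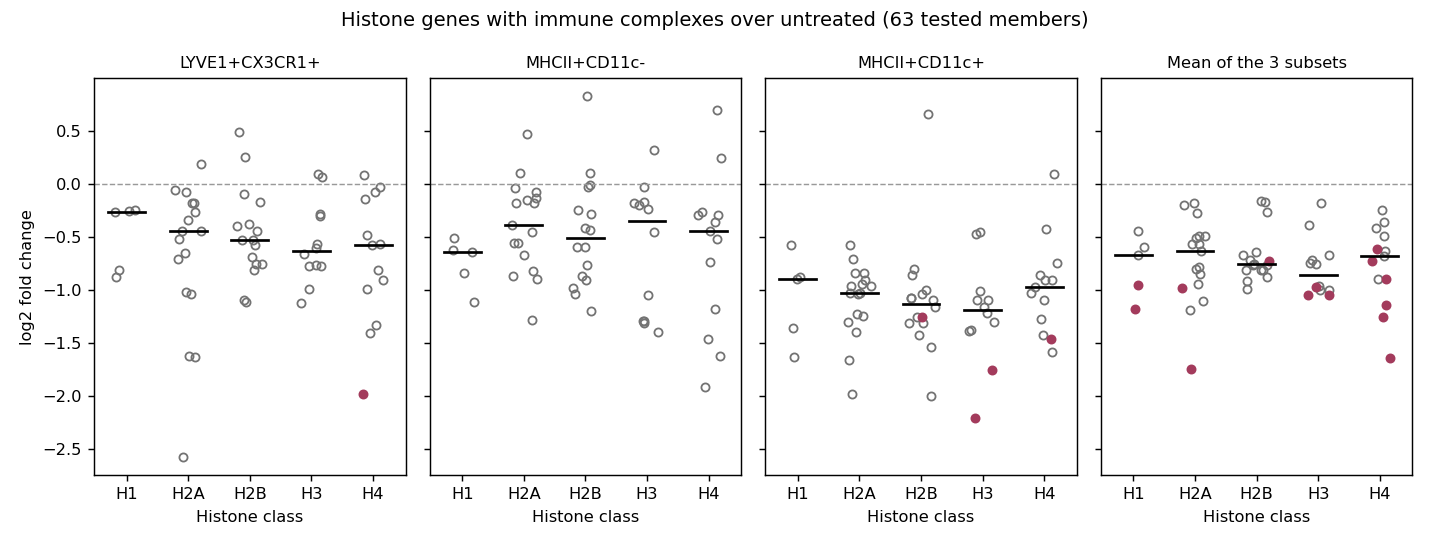
Log2 fold change of each tested histone gene with IC over untreated, in each subset and as the mean of the 3 subsets; filled points passed edgeR's test and lines are class medians. The medians over all members are −0.57, −0.46, −1.08 and −0.75 from left to right.

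Whether the response to IC differed between subsets was tested with interaction terms, and 0 members passed in any of the 3. The shares of all genes called were 0.0% for LYVE1+CX3CR1+ against MHCII+CD11c-, 0.00948% for LYVE1+CX3CR1+ against MHCII+CD11c+ and 0.00948% for MHCII+CD11c+ against MHCII+CD11c-. At an unadjusted p under 0.05, 1, 3 and 4 members differed, and the DESeq2 Wald test called 0 in each. The median difference of MHCII+CD11c+ from MHCII+CD11c- was −0.51, with single members from −2.83 to 1.08. A difference in response between the subsets was thus not detectable with these libraries.

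Genes of other steps of chromatin replication were examined as lists. Of 9 tested genes on a list of histone variants, 6 were lower in LYVE1+CX3CR1+ than in MHCII+CD11c- (11.6% of all genes lower). Against MHCII+CD11c+, 7 were lower (18.2%). The medians were −0.55 and −0.77. *H2afx*, the variant phosphorylated at DNA breaks, was lower by −1.80 ± 0.28 and −2.22 ± 0.26. *H2afz*, a variant found around promoters, was lower by −1.26 ± 0.13 against MHCII+CD11c+. With IC, as the mean of subsets, *H3f3b* rose (0.32 ± 0.09), and no variant fell.

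Of 31 S phase and DNA replication genes, 2 were lower in LYVE1+CX3CR1+ than in MHCII+CD11c-, where 11.6% of all genes were lower. Against MHCII+CD11c+, 16 were lower (18.2% of all genes). In MHCII+CD11c+, 7 were higher than in MHCII+CD11c- (4.97% of all genes). *Rrm2*, a subunit of ribonucleotide reductase, was lower in LYVE1+CX3CR1+ by −1.16 ± 0.40 and −2.45 ± 0.35, and *Uhrf1*, which helps copy DNA methylation, was higher in MHCII+CD11c+ than in MHCII+CD11c- by 2.53 ± 0.37. Of 25 genes of G2 and mitosis, 12 and 22 were lower in LYVE1+CX3CR1+ than in MHCII+CD11c- and MHCII+CD11c+ (11.6% and 18.2% of all genes). The medians were −1.75 and −2.18. *Ccnb2*, a mitotic cyclin, was lower by −3.18 in both. With IC, 0 genes of either list passed as the mean of subsets (medians −0.04 and −0.12), where 3.09% of all genes were lower. By unadjusted p, 2 and 5 did. In MHCII+CD11c+ alone, the median with IC was −0.02 for the S phase list and −0.71 for the mitosis list, and 0 genes of either passed (0 and 1 by unadjusted p). The summed mitosis level there was 646, 615 and 595 CPM untreated and 345, 447 and 453 CPM with IC, without overlap. The mitosis medians were 0.17 in LYVE1+CX3CR1+ and 0.05 in MHCII+CD11c-, and the S phase medians 0.03 and −0.28. *Mcm2*, a subunit of the replicative helicase, was the gene of these lists that passed in a single subset, higher with IC in LYVE1+CX3CR1+ (1.73 ± 0.40, edgeR adjusted p = 0.0452).

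Genes that act on histone transcripts moved less. Of 21 tested genes for transcription and processing of histone mRNA, 1 was lower and 1 higher in LYVE1+CX3CR1+ than in MHCII+CD11c-. Against MHCII+CD11c+, 4 were lower and 1 higher. Beside these, 11.6% and 18.2% of all genes were lower. *Slbp*, which encodes the stem-loop binding protein, was lower than in MHCII+CD11c+ (−0.63 ± 0.22, edgeR adjusted p = 0.026) and gave −0.26 ± 0.19 with IC as the mean of subsets (edgeR adjusted p = 0.502). *Npat*, the coactivator of histone gene transcription, passed in neither (0.51 and −0.04). Of 21 histone chaperones, 3 and 8 were lower in LYVE1+CX3CR1+, beside the same 11.6% and 18.2% of all genes. Among them was *Chaf1b*, a subunit of the assembly factor CAF-1 (−2.05 ± 0.72 and −2.28 ± 0.66). With IC 1 chaperone gene, *Ubn1*, was lower (−0.45), where 3.09% of all genes were lower.

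Other RNAs without a poly(A) tail or kept in the nucleus were compared because a total RNA kit captures them too. Of 12 tested, 3 were lower and 1 higher in LYVE1+CX3CR1+ than in MHCII+CD11c- (11.6% of all genes lower). Against MHCII+CD11c+, 4 were lower (18.2% of all genes). With IC, *Malat1* and *Neat1*, both long nuclear RNAs, were lower as the mean of subsets (−0.97 ± 0.13 and −0.96 ± 0.15), with a list median of −0.41. Their relation to the lower histone transcripts was not tested.

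Markers of other cells differed along with the histone genes, and their part in the results was not tested. Of all genes, 11.6% were lower in LYVE1+CX3CR1+ than in MHCII+CD11c- and 18.2% lower than in MHCII+CD11c+. With IC, as the mean of subsets, 3.09% of all genes were lower. The share of all genes higher with IC is not given here, so counts of markers higher with IC stand without it. The summed level of 9 erythroid markers was 2847 CPM in replicate 1 of untreated MHCII+CD11c- and 25.5 and 615 CPM in the other replicates, 1332 CPM in replicate 1 of untreated MHCII+CD11c+ against 362 and 108 CPM, and 1145 CPM in replicate 2 of untreated LYVE1+CX3CR1+ against 4.03 and 10.7 CPM. In each untreated group that library also had the highest histone sum. The IC groups went the other way. There replicate 1 had the highest erythroid sum, 37.0 CPM in LYVE1+CX3CR1+, 151 CPM in MHCII+CD11c- and 410 CPM in MHCII+CD11c+. Its histone sum was the lowest of each IC group, at 1653, 2683 and 2731 CPM. With IC the erythroid sums were 0.0 to 410 CPM, and all 5 tested erythroid markers were lower (median −3.90). Neutrophil markers summed to 18.1 to 175 CPM in LYVE1+CX3CR1+, where 6 of the 11 in the files were at 0 in the untreated libraries, and to 128 to 4421 CPM in the other subsets. All 9 tested were lower in LYVE1+CX3CR1+ than in either other subset, and 5 were higher with IC.

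Dendritic cell markers were lower in LYVE1+CX3CR1+ for 5 and 6 of 6 (sums 2.62 to 12.9 CPM against 62.5 to 460 CPM). With IC 1 dendritic cell marker was lower, where 3.09% of all genes were lower. Markers of T, NK and B cells were lower for 4 of 5 (3.82 to 9.40 CPM against 73.7 to 345 CPM), and monocyte markers for 5 of 7 with 1 higher, while 4 monocyte markers were higher with IC. The monocyte sums overlapped between all subsets (2034 to 9274 CPM). Fibroblast markers gave 1 higher of 5 in LYVE1+CX3CR1+ and endothelial markers 2 lower of 4 against either subset, with none passing with IC. The fibroblast sum was 642 CPM in replicate 1 of untreated LYVE1+CX3CR1+ against 31.2 and 30.0 CPM in replicates 2 and 3. In the MHCII+ subsets it was 7.81 to 161 CPM. In bulk libraries, fewer dividing cells and less histone RNA per cell cannot be told apart.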

How the data were processed

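RNA of sorted synovial macrophages was measured in 18 libraries. The authors trimmed 3 bases and adapters (Trim Galore), aligned reads to mm10 with HISAT2, counted them with featureCounts and deposited the counts of each symbol as they were, not normalized. Versions, annotation, strand setting and treatment of reads matching several genes are not given in the sources used here. The table of all libraries repeated these values and was left out. No 2 replicates held identical counts.

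From the counts, TMM factors, TMM-scaled CPM and edgeR 4.0.16 quasi-likelihood tests (R 4.3.3) were computed over all 18 libraries and 6 groups. filterByExpr (minimum count 10, minimum total count 15) kept 10550 genes. P-values were adjusted by Benjamini-Hochberg within each of 16 comparisons, at a threshold of 0.05, and the SE was the log2 fold change over the square root of F. The fit was tested on simulated data. Because libraries are pools, p-values measure the spread between pools. Levels of genes are compared per kb of RefSeq gene length. Alternatives used DESeq2 1.42.0, sva 3.50.0, other filters, blocks, and fewer libraries.

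Members and gene lists were chosen with earlier results of these data known. Genes are named as the 12 highest members, the top 2 of each class, members called in any comparison, up to 4 genes per list, sorting genes and members whose sequence is described. *Hist1h1b*, *Hist1h2bh*, *Hist1h3h* and *Npat* were also named after their values were seen, as were the members without a call or below the filter.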

Additional observations from a re-analysis of the deposited data

How the results depend on the processing

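Counts of members called moved as follows, and the cause was not tested except where fewer genes were tested. Where a gene needed 10 counts in each of the libraries (17 members left in the test), LYVE1+CX3CR1+ was lower than MHCII+CD11c- for 15 (both conditions), 8 (untreated) and 3 (IC) members and lower than MHCII+CD11c+ for 17, 17 and 10. MHCII+CD11c+ was higher than MHCII+CD11c- for 1 and 1, and IC lowered 0 in LYVE1+CX3CR1+, 0 in MHCII+CD11c+ and 6 as the mean. Without a filter, the counts were 26 and 27 for MHCII+CD11c+ over MHCII+CD11c- (both, untreated), 32 and 24 for LYVE1+CX3CR1+ under MHCII+CD11c- (untreated, IC), 3, 4, 30 and 43 for IC in LYVE1+CX3CR1+, MHCII+CD11c-, MHCII+CD11c+ and as the mean, and 1 for the response of MHCII+CD11c+ minus MHCII+CD11c-. With 1 surrogate variable, MHCII+CD11c+ exceeded MHCII+CD11c- for 17 (both) and 8 (untreated), and IC lowered 1 in MHCII+CD11c- and 27 as the mean. This variable mostly marked 1 library, the smallest. It was 0.940 in replicate 2 and −0.282 in replicate 1 of MHCII+CD11c- with IC, and −0.089 to 0.019 in the others. The DESeq2 Wald test gave 7 for MHCII+CD11c+ over MHCII+CD11c- untreated and 0, 1 and 8 for IC in LYVE1+CX3CR1+, MHCII+CD11c- and MHCII+CD11c+. Only the libraries compared gave 9 for MHCII+CD11c+ over MHCII+CD11c- untreated and 14 for IC in MHCII+CD11c+. Without the 2 smallest libraries the untreated count was 9, and LYVE1+CX3CR1+ was under MHCII+CD11c- with IC for 5. The labels do not say whether a replicate number marks shared mice. Same-number correlations (−0.07 to 0.13) were over 0.1 only between replicates 1 of untreated MHCII+CD11c- and MHCII+CD11c+ (0.132). The fit without a block was therefore kept, and pairing was not settled. With the number as a replicate block the counts stayed within 1.5 times (32 became 33, 58 stayed 58, 14 became 17, 4 became 3 for IC in MHCII+CD11c+, 4 became 6 for untreated MHCII+CD11c+ over MHCII+CD11c-), and with treatment and number as a replicate block of pools the last was 14.

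Leaving out 1 library at a time gave 21 to 35, 54 to 58 and 3 to 21 members for LYVE1+CX3CR1+ under MHCII+CD11c-, under MHCII+CD11c+, and MHCII+CD11c+ over MHCII+CD11c- over both conditions, 2 to 26, 44 to 57 and 1 to 23 untreated, and 3 to 15, 12 to 42 and 0 to 1 with IC. For IC these were 0 to 1 in LYVE1+CX3CR1+, 0 to 1 in MHCII+CD11c-, 0 to 7 in MHCII+CD11c+ and 11 to 24 as the mean, and 0 in the interactions. Untreated MHCII+CD11c+ over MHCII+CD11c- was 1 without replicate 1 or 2 of the first or 2 or 3 of the second, 23 without replicate 1 of the second, 9 without replicate 3 of the first or replicate 2 of MHCII+CD11c- with IC, and 7 without replicate 3 of the latter. With IC, LYVE1+CX3CR1+ was under MHCII+CD11c- for 5, 3 and 6 without its replicate 1, its replicate 2 and replicate 3 of MHCII+CD11c-, the last of which also gave 1 call between MHCII+CD11c+ and MHCII+CD11c-. LYVE1+CX3CR1+ with IC was under MHCII+CD11c+ for 20 and 22 without its replicate 1 or 2. In MHCII+CD11c- IC lowered 1 without replicate 1 of untreated LYVE1+CX3CR1+ or replicate 2 of MHCII+CD11c- with IC. The mean of subsets gave 23 and 24 without replicate 2 of MHCII+CD11c- untreated or with IC. No called member changed sign under any alternative. In summed levels, IC over untreated in MHCII+CD11c- turned from −0.351 to 0.127 for H2A without replicate 1 of the untreated group (−0.965 to 0.127 over all runs that left out a library) and from −0.747 to 0.031 for H2B without the 2 smallest libraries, and for all members was −0.801 to −0.029 over the alternatives. Counting each identical pair once, an alternative chosen after seeing the data, gave 29, 54 and 9 for the comparisons over both conditions and 13 for IC as the mean.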
